A study of Mus musculus with 13 samples.

Results

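Smgc and Muc19 are neighboring products of a single locus on mouse chromosome 15, and they were followed here by their own rows in 13 RNA-seq libraries of the submandibular gland. They are 2 of the 23364 genes in the files, and both were picked by symbol after their levels in these libraries were known. Their levels and differences between time points are therefore given as a description, with no test. The libraries covered 6 time points in C57BL/6 mice, from embryo (E, days of gestation) through postnatal day 5 (P5) to weeks of age (wk). The E14.5 group held 3 samples, and the groups E16.5 and E18.5 held 2 samples apiece, as did the postnatal groups P5, 4wk and 12wk. No animal was treated or mutant. An E14.5 sample pooled the glands of 3 animals and an E16.5 or E18.5 sample those of 2. Sex was not ascertained in the embryos and at P5, while the 4wk and 12wk mice were male, so age and sex cannot be told apart in any step from P5 to 4wk.

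Smgc encodes submandibular gland protein C, a secretory protein of the terminal tubule cells of the newborn rodent gland. These cells are known to lie at the ends of the ducts around birth and to become rare as acini mature. Muc19 encodes a very long gel-forming mucin, the kind of secreted glycoprotein that makes saliva viscous, and is best known as the chief mucin of the mucous cells of the sublingual gland, which lies against the submandibular gland. Mucins carry dense O-linked sugars, which are started by the Galnt enzymes, extended by core enzymes such as B3gnt6 and capped with sialic acid by St3gal and St6galnac enzymes.

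On the mm9 build both genes lie on the plus strand, Smgc at chr15:91668696-91691869 and Muc19 at chr15:91668757-91766819. The annotation used here (GENCODE vM1) gives them a common exon 1 of 95 bases, chr15:91668757-91668851, and the annotated starts of the main Smgc transcript and of Muc19 are 2 bases apart. Exon 1 holds the start codon at base 91668800 and 52 coding bases that both messages use. From there the transcripts part. Smgc splices over 2.91 kb to its exon 2, and its 17 later exons all lie inside the 32.1 kb intron that Muc19 removes before its own exon 2. Exon 1 ends at a GT donor, and both acceptors are AG. The coding bases of exon 1 in capitals and the 30 bases of exon 2 that follow in lower case show where the messages become different, for Smgc with exon 2 from chr15:91671763-91671792 and for Muc19 with exon 2 from chr15:91700903-91700932.
Smgc exon 1 to exon 2: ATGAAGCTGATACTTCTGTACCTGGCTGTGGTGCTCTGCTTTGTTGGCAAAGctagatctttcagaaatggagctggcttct
Muc19 exon 1 to exon 2: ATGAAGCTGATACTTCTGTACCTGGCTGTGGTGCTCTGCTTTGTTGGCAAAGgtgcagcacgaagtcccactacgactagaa
Several other annotated Smgc transcripts also start at base 91668759 or slightly later within exon 1. The rest start elsewhere, 1 of them upstream at base 91668696 and others farther inside the gene. The 30 bases at chr15:91668717-91668746, shown because they hold the letters of a TATA box, lie shortly before the shared start and inside exon 1 of that upstream transcript, with the match in capitals and its first base 28 bases before the start of exon 1.
Upstream of the shared start: gttgagatggccTATAAAtacgcgggctag
The motif TATAAA had 1 match in the 250 bases before the start and 0 on the other strand. Of 32851 mouse promoters of that length in the RefSeq table (GRCm38.p6), 12.4% held it on either strand and 7.59% on the strand of the gene. The table lists the locus once, under Smgc, and its letters matched those of mm9.

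**Figure D1:**
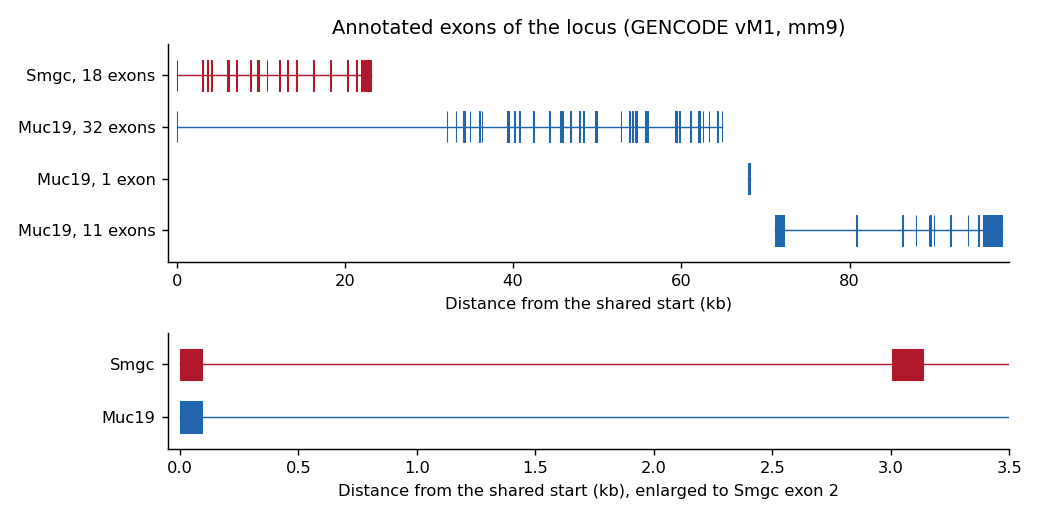
Exons of the Smgc transcript whose length matches the counted length and of the 3 annotated Muc19 transcripts, by distance in kb from the shared start, with boxes for exons and lines for introns. The enlarged panel shows that exon 1 is the stretch both genes have in common and that Smgc exon 2 follows 2.91 kb later within an intron of Muc19.

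The values are FPKM, which scale a gene's reads to its length in kilobases and to all reads on genes in that library. The steps between low values gave back the whole reads and the gene length behind each FPKM. Smgc was counted over 2977 bases, exactly the length of an annotated transcript with 18 exons, chr15:91668759-91691866. Muc19 was counted over 9103 bases, more than the 8040 exonic bases that the annotation used here lists for it in 3 separate transcripts, so the exons behind its value are known only in part. According to the methods, reads that fell on more than 1 gene or aligned to more than 1 place were left out. Reads inside the annotated exon 1 lie on both genes, and if the Muc19 model that was counted includes this exon, such reads entered neither value. Whether it does is not known here.

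The libraries held between 5817293 (4wk) and 48314162 (P5) reads on genes, so the 4wk values are the least deep. One E14.5 library stood apart, with the cartilage collagen Col2a1 at 142 FPKM against 2.87 and 4.04 in the others, and with a summed FPKM of 6 epithelial genes of 350 where the highest E14.5 library had 639. The 7 skeletal muscle genes summed to between 473 and 916 FPKM at E16.5 and to at most 26.8 from E18.5 on. The epithelial genes, which check the label of a gland, were Epcam, Cdh1, Krt8, Krt18, Elf5 and Ehf, and their sum was at least 350 FPKM in all libraries. In bulk tissue, fewer cells of a type and less RNA per cell cannot be told apart. Nothing in the labels says that same-aged samples came from separate litters, and errors below are spreads between these samples, which may be technical in part.

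Smgc was the most abundant of all genes at P5. Its FPKM was 42935 and 47357 in the 2 P5 samples (mean 45146 ± 3127, SD, n = 2), from 6175446 and 5945038 reads. These were 12.8% and 14.1% of all reads on genes, with exact 95% binomial intervals of 12.77 to 12.79% and 14.09 to 14.11% that cover counting error only. Both P5 samples placed Smgc at rank 1 among the 23364 genes.

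The gene rose to that level in 3 steps between E14.5 and P5. At E14.5 it stood at 0.0523, 6.23 and 3.30 FPKM, from 3, 470 and 263 reads. The lowest of the E14.5 values came from the library with the cartilage and low epithelial signal, and its 3 reads have an exact Poisson interval of 0.619 to 8.77 reads. At E16.5 the values were 1351 and 2109 FPKM, 542 times the E14.5 mean, and already 0.402% and 0.628% of all reads on genes, which placed Smgc at ranks 76 and 6. At E18.5 they were 17748 and 19478 FPKM, a mean 10.8 times that of E16.5. Smgc then took 5.28% and 5.80% of the reads, and both libraries placed the gene at rank 2. From E18.5 to P5 the mean rose a further 2.43 times. At each of these steps the difference of the means exceeded the SDs within ages. The samples of the 2 ages did not overlap either, which says little with 2 or 3 samples per age. The share of all genes without overlap is not given here. Epithelial genes also rose over this period, from a sum of 350 to 639 FPKM at E14.5 to between 1262 and 1635 in the 4 later embryonic libraries, and the part of epithelial content in the first step was not tested.

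Between P5 and 4wk Smgc fell 849-fold. The 4wk samples held 48.2 and 58.1 FPKM (mean 53.1 ± 6.98, n = 2), from 835 and 1376 reads, and their share of all reads on genes was 0.0144% and 0.0173%. The 4wk samples lay far under both P5 samples and also under both E16.5 samples. The 6 epithelial genes summed to between 939 and 957 FPKM at 4wk and to between 1353 and 1588 at P5. The part of epithelial content in the fall was not tested, and these general genes do not measure the share of terminal tubule cells.

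At 12wk the samples did not resemble each other. Smgc stood at 0.154 FPKM in replicate 1, from 10 reads (exact Poisson interval 4.80 to 18.4), and at 58.6 FPKM in replicate 2, from 4956 reads. The first value lies within the E14.5 range and the second just above both 4wk values. The difference between both 12wk samples, 5.69 on the log2(FPKM + 1) scale, was second in size only to that of BC048546 among 14650 genes, where the SD over genes was 0.239. The samples had similar levels of the epithelial genes, with sums of 862 and 899 FPKM, and similar depth, with 21820923 and 28431454 reads. The 12wk mean of 29.4 ± 41.3 (n = 2) therefore describes neither sample, and no direction from 4wk to 12wk can be given for Smgc.

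Muc19 followed a different course, at lower levels per length, and stayed up after Smgc had gone down. At E14.5 it stood at 0.0171, 0.238 and 0.210 FPKM, from 3, 55 and 51 reads. The lowest value again came from the library with cartilage signal. At E16.5 the values were 15.9 and 33.5 FPKM, 159 times the E14.5 mean, and at E18.5 they were 44.5 and 49.1. The E16.5 mean of 24.7 ± 12.4 and the E18.5 mean of 46.8 ± 3.23 (n = 2 each) differed by more than these SDs. Their samples did not overlap, which says little with 2 samples per age. The P5 samples held 74.9 and 43.3 FPKM (mean 59.1 ± 22.3, n = 2) and overlapped with E18.5, so no change from E18.5 to P5 was larger than the spread. The 2 P5 samples thus differed more for Muc19 than for Smgc, and in the opposite order.

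At 4wk Muc19 reached its highest level, 103 and 82.3 FPKM (mean 92.7 ± 14.7, n = 2), from 5458 and 5963 reads. Both values were above both P5 values, and the mean was 1.57 times that of P5. Even so, Muc19 held only 0.0938% and 0.0749% of the reads on genes at 4wk, with ranks 448 and 533, where Smgc had ranks 1006 and 731. At 12wk it stood at 0.0252 FPKM in replicate 1, from 5 reads, and 2.19 in replicate 2, from 567 reads. Their exact Poisson intervals were 1.62 to 11.7 and 521 to 616 reads. Both values were under every sample from E16.5 to 4wk, and the 12wk mean of 1.11 ± 1.53 was 83.7-fold below that of 4wk. Replicate 2 was the higher of the 12wk samples for both genes.

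In order of mean FPKM, Smgc ran from P5 through E18.5, E16.5, 4wk and 12wk to E14.5. The 12wk samples overlapped those of 4wk and of E14.5. Muc19 ran from 4wk through P5, E18.5, E16.5 and 12wk to E14.5, where P5 overlapped with E18.5 and 12wk with E14.5. The time points at the top of the 2 orders therefore differ. With libraries rescaled by the median of ratios the top of each order was the same, with Smgc between 39413 and 45928 at P5 and Muc19 between 133 and 144 at 4wk, where its P5 values were 42.0 and 68.8.

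The ratio of both genes within a library does not depend on how libraries were scaled. It does depend on the counted lengths of 2977 and 9103 bases, and the exons behind the Muc19 length are known only in part. It also depends on which reads were left out, and the effect on the order of both genes was not tested. Per length, Smgc exceeded Muc19 in 11 of 13 libraries. Its FPKM was 85.0 and 63.0 times that of Muc19 at E16.5, 399 and 397 times at E18.5, and 573 and 1093 times at P5. At 4wk the order turned, and Muc19 was 2.14 and 1.42 times as high as Smgc. At 12wk Smgc was again above Muc19, 6.12 times in replicate 1, from 10 and 5 reads, and 26.7 times in replicate 2, from 4956 and 567 reads. At E14.5 the ratio was 3.06, 26.1 and 15.8, the first of these from 3 reads for each gene.

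As a share of the summed FPKM of both, Muc19 took 1.16% and 1.56% in the E16.5 libraries. Its share was 0.250% and 0.251% by E18.5 and 0.174% and 0.0914% by P5. It took 68.1% and 58.6% at 4wk. In reads, where the longer counted length of Muc19 weighs more, the 4wk shares were 86.7% (exact 95% interval 85.9 to 87.6) and 81.3% (80.3 to 82.1). Per length, the exact Poisson intervals in 4wk replicate 1 were 45.0 to 51.6 FPKM for Smgc and 100 to 106 for Muc19. In 4wk replicate 2 they were 55.1 to 61.2 and 80.2 to 84.4 FPKM. The order per length at 4wk was thus beyond counting error in both samples. These intervals cover no error from the counted lengths or the reads left out. At 12wk the shares of summed FPKM were 14.1%, from 15 reads in all, and 3.61%. The plot of both genes by library shows the fall of Smgc while Muc19 stayed up, and the share panel shows the 4wk samples apart from the rest.

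**Figure D2:**
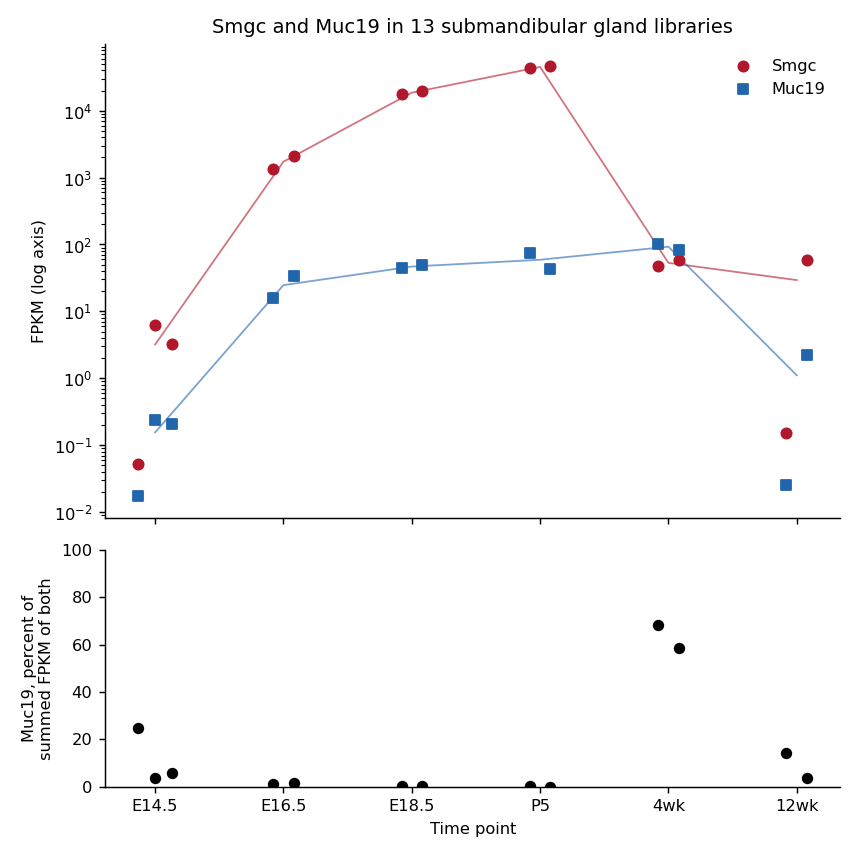
Upper panel, FPKM of Smgc (circles) and Muc19 (squares) in each of the 13 libraries on a log axis, with lines through the mean of each time point. Lower panel, Muc19 as a percent of the summed FPKM of both genes, which is 68.1 and 58.6 in the 4wk libraries and at most 24.6 in the other 11.

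The 3 nearest annotated genes with values on each side of the locus did not reach such levels. Annotated genes without values were passed over. The nearest gene upstream with values is Lrrk2, a leucine-rich repeat kinase, 22.1 kb away. Its highest level in any library was 3.28 FPKM. It fell from 2.14 ± 0.111 FPKM at P5 to 0.268 ± 0.290 at 4wk (n = 2 each; log2 fold change -1.33, SE 0.181, adjusted p = 0.000152, limma). Slc2a13 and Abcd2 farther upstream stayed at or below 3.57 FPKM. Downstream, Cntn1, 115 kb away and coding for a neural adhesion protein, reached 1.40 FPKM, Pdzrn4 stayed below the filter of 1 FPKM, and Gxylt1 reached 13.8 FPKM. The correlation of log2(FPKM + 1) with Smgc over the 13 libraries was 0.56 for Lrrk2 and 0.57 for Cntn1, and with Muc19 it was 0.11 and 0.10, given as a description over libraries that share their ages.

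Genes with the most similar profiles were sought by the Pearson correlation of log2(FPKM + 1) over the 13 libraries, among the 14650 genes that reached 1 FPKM in any library. The libraries share their time points and the correlations are descriptions. The correlation of Smgc with Muc19 themselves was 0.78, which placed Muc19 at rank 396 for Smgc and Smgc at rank 277 for Muc19. Many genes were thus more alike in profile to either of them than they were to each other.

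For Muc19 the first was B3gnt6 (r = 0.99), the enzyme that makes the core 3 structure of mucin O-glycans. B3gnt6 stood at 0.0876, 0.0833 and 0.0158 FPKM at E14.5, rose to 5.03 and 8.21 in the E16.5 libraries, and reached 14.6 and 17.9 in those of E18.5 and 15.8 and 17.3 in those of P5. It was at 19.9 and 20.8 FPKM at 4wk and at 0.116 and 1.31 at 12wk. As with Muc19, its highest values were those of 4wk and replicate 2 was the higher at 12wk. Such likeness follows from its choice by correlation with Muc19 over these same libraries. The others among the 10 were Fam3b, Chn2, BC048546, Dcpp3, Tmprss13, Lman1l, H2-T23, Cgref1 and Trim34a, with r from 0.97 to 0.94. Among them Fam3b encodes a secreted cytokine-like protein, Dcpp3 a demilune cell and parotid protein, Lman1l a lectin-like relative of a cargo receptor of the secretory pathway, and H2-T23 a non-classical class I histocompatibility molecule. Lman1l had a mean of 85.0 FPKM at 4wk and 7.06 at 12wk, and H2-T23 of 57.1 and 9.92.

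For Smgc the 10 were Bace2 (r = 0.95), Btc, Ctso, Rrh, Abcc3, Emp2, Ramp1, Adam28, Epha5 and Serinc5 (r = 0.93). Bace2 encodes an aspartyl protease, Btc the epidermal growth factor receptor ligand betacellulin, and Ramp1 a partner of the receptor for calcitonin gene-related peptide. All 10 were at far lower levels than Smgc, the highest mean at P5 being that of Emp2 with 32.7 FPKM. Ramp1 rose from a mean of 0.648 FPKM at E14.5 to 16.4 at P5 and stood at 3.75 at 4wk and 0.549 at 12wk. The lists depended on the measure. With rank correlation 5 of these 10 stayed among the first 10 for Smgc and 2 for Muc19, and with rescaled libraries 3 and 4, although B3gnt6 kept an r of 0.99.

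The genes of the mucous pathway were tested with limma across all 14650 genes in 3 comparisons around the turns of Smgc and Muc19, and a gene was called where its adjusted p was under 0.1 and its log2 fold change was 1 or more, up or down. From E14.5 to P5, 24.8% of all genes tested were called, 9.06% higher and 15.7% lower at P5. From P5 to 4wk 24.3% were called, 2.19% higher and 22.1% lower at 4wk. From 4wk to 12wk 5.15% were called, 2.68% higher and 2.48% lower at 12wk. With libraries rescaled by the median of ratios the directions were more even. The split was then 1678 higher and 1231 lower in place of 1327 and 2303 at P5 against E14.5, and 935 and 1278 in place of 321 and 3235 at 4wk against P5. Rescaling moved the median of all genes by 0.27 and 0.48 on the log2 scale in these 2 comparisons, and by 0.0074 from 4wk to 12wk.

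Few of the other mucins listed reached the filter of 1 FPKM. Of 16 further mucin symbols listed, with Muc10 and Prol1 counted apart, 11 were in the files. The 3 that passed the filter were Muc1, Muc13 and Prol1. The gel-forming mucins Muc2, Muc5ac, Muc5b and Muc6 stayed at or below 0.966 FPKM in all 13 libraries. Prol1, which encodes the mucin Muc10 of the mouse submandibular gland, rose from 20.6 ± 1.56 FPKM (n = 3) at E14.5 to 17321 ± 1953 at P5 (log2 fold change 9.65, SE 0.238, adjusted p = 3.51e-10) and again to 80043 ± 1307 at 4wk (2.21, SE 0.261, adjusted p = 6.04e-05). At 12wk it stood at 55656 ± 8315 FPKM, which was not called. Muc1, a membrane mucin, stood at 1.58 and 2.19 FPKM at P5 and at 0 and 0.618 at 4wk, where it was called lower (-1.17, SE 0.247, adjusted p = 0.00218), a call that was lost with rescaled libraries (-0.97). Muc13, also a membrane mucin, was at 0.231 ± 0.00112 FPKM at P5, rose to 34.7 ± 5.03 at 4wk (4.85, SE 0.148, adjusted p = 1.46e-09) and to 76.4 ± 0.171 at 12wk (1.12, SE 0.148, adjusted p = 0.000833). Prol1 and Muc13 thus stayed high at 12wk, when Muc19 was at or below 2.19 FPKM. The call of Muc13 at 12wk was lost without replicate 1 of 4wk, with a log2 fold change of 0.98.

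Of 17 genes of the mucous and goblet cell program, 10 passed the filter. Of these 10, 6 were higher at P5 than at E14.5 and none lower, where 9.06% of all genes were higher and 15.7% lower. The median log2 fold change of the 10 was 1.44 where that of all genes was -0.29. Agr2, a disulfide isomerase that helps mucins fold, rose from 1.36, 2.44 and 2.81 FPKM to 114 and 122 (log2 fold change 5.24, SE 0.239, adjusted p = 5.72e-08). The transcription factors Creb3l4, Spdef and Nkx2-3 rose by 3.45, 3.42 and 1.42 on the log2 scale (adjusted p = 3.49e-06, 0.000932 and 0.00118). The lowest E14.5 value of each came from the library with cartilage signal. For Spdef (SE 0.651) it was 0.654 FPKM, against 12.6 and 8.72 in the other E14.5 libraries and 63.5 and 63.2 at P5. The secretory factors Creb3l1 and Xbp1 were the other 2 of the 6 that were higher. Without the E14.5 library with cartilage signal the count was again 6.

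From P5 to 4wk, when Smgc fell and Muc19 did not, 0 of these 10 rose and 3 fell, Agr2, Clca1 and Creb3l4, where 22.1% of all genes fell. With rescaled libraries 1 of the 10 was lower, Agr2. From 4wk to 12wk 2 of the 10 fell and none rose, where 2.48% of all genes fell and 2.68% rose. Creb3l4 fell from 16.8 and 33.3 FPKM to 1.30 and 1.95 (log2 fold change -3.25, SE 0.320, adjusted p = 0.000114). Nkx2-3, a homeobox factor, fell from 4.72 and 1.78 FPKM to 0 and 0.283 (-1.82, SE 0.307, adjusted p = 0.00367), a call that was lost when only the 4 samples of both ages were fitted. Agr2 (36.9 and 31.7 FPKM at 4wk, 27.1 and 20.5 at 12wk) and Xbp1 (186 and 168, 189 and 170) were not called. Spdef stood at 36.8 and 38.6 FPKM at 4wk and at 15.3 and 9.91 at 12wk, with no call at the threshold.

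Of 29 O-glycosylation symbols listed, 27 were in the files and 24 passed the filter. The others, Galntl1 and Galntl4, are older names of Galnt16 and Galnt18, which were in the files. At P5 against E14.5, 7 were higher and 6 lower, where 9.06% of all genes were higher and 15.7% lower. With rescaled libraries 9 were higher and 4 lower. The sialyltransferase St6galnac1 rose most, from 0.215 ± 0.171 FPKM to 52.1 ± 4.51 (log2 fold change 5.46, SE 0.216, adjusted p = 2.04e-08), followed by B3gnt6 (4.05, SE 0.268, adjusted p = 7.18e-07), St3gal1 (3.13, SE 0.232, adjusted p = 1.41e-06) and Galnt3 (1.91, SE 0.165, adjusted p = 4.14e-06). Among those that fell were St6galnac3 (-2.60), Galnt16 (-1.52) and Galnt1 (-1.50).

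At 4wk against P5, 3 of the 24 O-glycosylation genes were higher and 4 lower, or 5 and 2 with rescaled libraries. Of all genes 2.19% were higher and 22.1% lower. C1galt1, the core 1 synthase, rose from 5.65 ± 0.395 to 22.6 ± 1.48 FPKM (log2 fold change 1.83, SE 0.180, adjusted p = 1.90e-05), and St6galnac1 fell from 52.1 ± 4.51 to 11.6 ± 1.53 (-2.08, SE 0.236, adjusted p = 4.84e-05). B3gnt6 was not called and had 15.8 and 17.3 FPKM at P5 and 19.9 and 20.8 at 4wk.

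At 12wk against 4wk, 2 O-glycosylation genes were higher and 6 lower, where 2.68% of all genes were higher and 2.48% lower. B3gnt6 fell from 19.9 and 20.8 FPKM to 0.116 and 1.31 (log2 fold change -3.73, SE 0.293, adjusted p = 2.92e-05). St3gal1, which adds sialic acid to core 1, fell from 71.8 and 40.9 to 10.9 and 7.63 FPKM (-2.45, SE 0.254, adjusted p = 0.000158). Galnt12, an initiating transferase, fell from 12.4 and 7.60 to 0.931 and 1.25 FPKM (-2.36, SE 0.188, adjusted p = 2.92e-05). Galnt5, Galnt4 and Galnt7 fell by 1.33, 1.13 and 1.00 on the log2 scale, while St6galnac1 and Gcnt1 rose by 1.22 and 1.44. With only the 4 samples of both ages in the fit, 3 of the 24 were lower, B3gnt6 and Galnt12 among them, and none higher. Mucous cells of the sublingual gland also make Muc19, and any part that such tissue in the dissections had in these values was not tested.

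**Figure D3:**
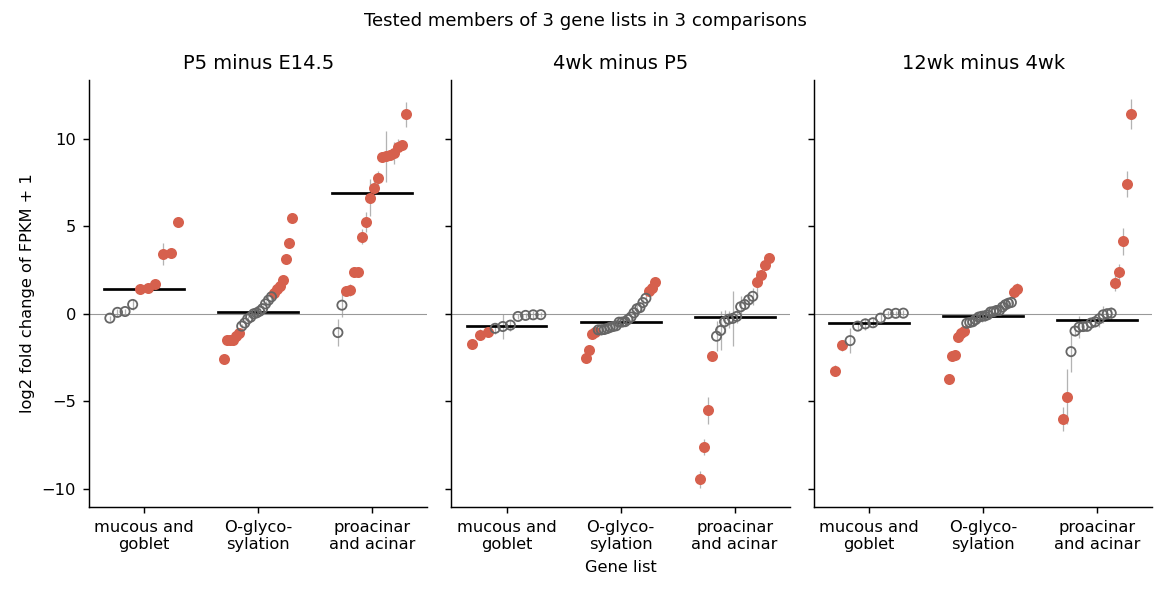
Log2 fold change of FPKM + 1 (with its SE) for each tested member of 3 gene lists in 3 comparisons, filled where called and open where not, with the list's median as a bar. In the comparison of 12wk with 4wk the mucous and goblet list has 2 members called lower and the O-glycosylation list 6. Of all genes tested, 2.48% were called lower there.

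The list of proacinar and acinar genes holds secreted products of newborn and of adult secretory cells, and also channels, a receptor and a transcription factor of these cells. Of 18 tested, 16 were higher at P5 than at E14.5 and none lower, where 9.06% of all genes were higher and 15.7% lower. The median log2 fold change of the 18 was 6.91 where that of all genes was -0.29. Without the E14.5 library with cartilage signal 15 of the 18 were higher. Bpifa2, parotid secretory protein, rose from 10.8 ± 4.96 FPKM to 29474 ± 71.4 (log2 fold change 11.39, SE 0.703, adjusted p = 4.48e-07). The proline-rich protein genes Prpmp5 and Prb1 were at 0 in all 3 E14.5 libraries and at 750 ± 101 and 212 ± 21.0 FPKM at P5.

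From P5 to 4wk 4 of the 18 rose and 4 fell, or 7 and 4 with rescaled libraries. Of all genes 2.19% rose and 22.1% fell. The 4 that fell with Smgc were Prpmp5 (to 0 and 0.0979 FPKM; log2 fold change -9.48, SE 0.479, adjusted p = 1.33e-07), Prb1 (-7.60, SE 0.458, adjusted p = 6.16e-07), Bpifa2 (from 29474 ± 71.4 to 641 ± 104 FPKM; -5.53, SE 0.770, adjusted p = 0.000173) and Prh1 (-2.43, SE 0.208, adjusted p = 8.06e-06). Those that rose were the acinar products Pip (3.21), Car6 (2.77), Prol1 (2.21) and amylase, Amy1 (1.80). The call of Amy1 was lost when any 1 library of either age was left out, which left 3 that rose. The other 10 were not called. Among them Dcpp1, Dcpp2 and Dcpp3, demilune cell and parotid proteins, kept high levels, with Dcpp3 at 15143 and 18896 FPKM at P5 and 11595 and 13111 at 4wk.

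From 4wk to 12wk 5 of the 18 were higher and 2 lower, where 2.68% of all genes were higher and 2.48% lower. The 12wk samples stood far apart for the 7 genes called. Dcpp3 was lower, with 86.4 and 418 FPKM at 12wk (-6.01, SE 0.669, adjusted p = 0.000257), and so was Dcpp2 (146 and 1202 FPKM; -4.75, SE 1.58, adjusted p = 0.0775), a call that was lost when any 1 library of either age was left out. Bpifa2 stood at 3770 and 33795 FPKM, Smr3a at 1106 and 10418, and Amy1 at 625 and 6360. In each of these 5 genes replicate 2 held the higher value, as it did for Smgc and Muc19. Only 10 of 14650 genes were higher in replicate 2 by more than 3 on the log2 scale, among them Smgc, BC048546, Amy1, Smr3a, Bpifa2 and Dcpp2, and 0 were lower by as much. With only the 4 samples of both ages in the fit, 1 of the 18 was higher and none lower.

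**Figure D4:**
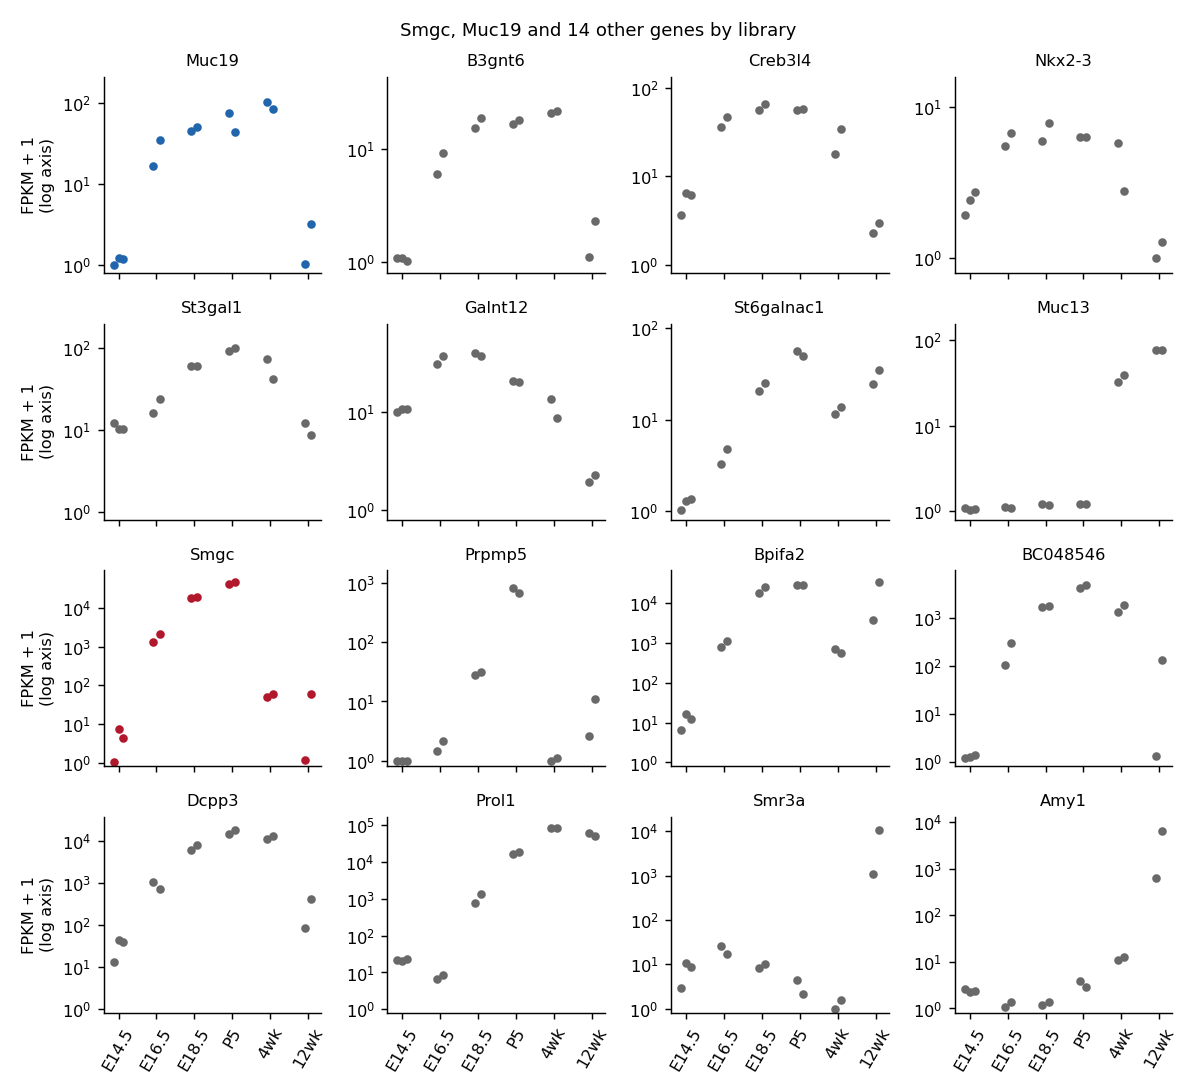
FPKM + 1 on log axes in each library for Smgc, Muc19 and 14 other secretory, mucous and O-glycosylation genes named in the text. B3gnt6, picked out by its correlation with Muc19 over these libraries, was high from E16.5 to 4wk and low at 12wk as Muc19 was. Prpmp5 dropped at 4wk as Smgc did, and Smr3a and Amy1 differed between both 12wk libraries in the same direction as Smgc.

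The remaining lists put these changes beside those of other cells of the gland. Of 16 granular convoluted tubule genes, which mark the ducts that mature in adult males, 15 were higher at 4wk than at P5 and none lower, and 14 were higher and 1 lower at 12wk than at 4wk. All of these 12wk calls were lost when only the 4 samples of both ages were fitted. Of 17 duct genes 12 were higher at P5 than at E14.5 and none lower. At 4wk against P5, 2 duct genes were higher and 5 lower, or 6 and 2 with rescaled libraries. Of all genes 2.19% were higher and 22.1% lower in this comparison. At P5 against E14.5 these shares were 9.06% and 15.7%, and at 12wk against 4wk they were 2.68% and 2.48%. The counts in this paragraph stand beside the shares of their comparison. Kit, a receptor tyrosine kinase, fell by 2.04 on the log2 scale (SE 0.305, adjusted p = 0.000265), and Scnn1b, a sodium channel subunit, and Ascl3, a transcription factor, rose by 1.74 and 1.21 (adjusted p = 0.000144 and 0.000947). From E14.5 to P5 all 4 adipocyte genes and 5 of 6 leukocyte genes rose, all 7 skeletal muscle genes fell, and 1 of 5 fibroblast genes fell and 1 of 5 endothelial genes rose. From P5 to 4wk 3 of 5 fibroblast genes fell, as did 2 of 6 leukocyte genes and 4 of 5 endothelial genes, the last being 1 with rescaled libraries and between 2 and 5 with a library left out. From 4wk to 12wk 3 fibroblast genes and 1 endothelial gene fell, or 1 and 0 with only the 4 samples of both ages in the fit. The adipocyte genes Adipoq and Plin1 were called lower at 4wk than at P5, but their samples overlapped, no adipocyte call was left with rescaled libraries, and between 0 and 4 were called lower with a library left out. The summed FPKM of the 4 adipocyte genes ranged from 340 to 1120 at P5 and from 61.9 to 792 at 4wk, and their part in the values of Smgc and Muc19 was not tested.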

How the data were processed

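The 13 libraries were assigned to time points by their labels. Smgc and Muc19, the gene lists and the tests were chosen with earlier results of these data known. The authors mapped single-end reads to mm9 with TopHat2 2.0.13 and Bowtie2 2.2.6, counted them on UCSC genes with featureCounts, and deposited FPKM for each gene; the authors' notes also name DESeq2 1.10.1. Each FPKM is scaled to a library's total, so a gene with a large share of reads lowers all others. Whole reads and counted lengths were recovered from the steps of the FPKM (20266 of 20268 genes whole within 1e-06 reads). Genes that reached 1 FPKM in any library (14650 of 23364) were fitted as log2(FPKM + 1) with limma 3.58.1 (R 4.3.3; lmFit, contrasts.fit, eBayes with trend, 6 time points as groups, two-sided, Benjamini-Hochberg over all genes tested), called where the log2 fold change was 1 or more in size and the adjusted p under 0.1. Fold changes are on the log2(FPKM + 1) scale, which understates those of low genes. No count model was used, since FPKM are not counts. The fit was tested on simulated data. Named genes were Smgc and Muc19 and the 10 genes most correlated with each. Up to 4 called members per list and comparison whose samples did not overlap were also named, with any list member whose function is described. The 3 nearest genes with values on each side were named too. Col2a1 was named after its values were seen. Positions are those of GENCODE vM1 on mm9. Alternatives were a pseudocount of 0.1, no filter or 5 FPKM, median-of-ratios rescaling, no trend, adjusted p under 0.05, a replicate block, only the samples compared and each library left out. Python 3.11.15, numpy 2.4.6, pandas 2.3.3, scipy 1.17.1 and matplotlib 3.10.9 were used.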

Additional observations from a re-analysis of the deposited data

How the results depend on the processing

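The rises of Smgc and Muc19 from E14.5 to P5, the fall of Smgc from P5 to 4wk and the fall of Muc19 from 4wk to 12wk kept their direction under every alternative run. With a pseudocount of 0.1 the log2 difference of Muc19 was 7.95 in place of 5.66 from E14.5 to P5 and -7.43 in place of -5.69 from 4wk to 12wk, and the genes called were 5767 in place of 3556 from P5 to 4wk and 1658 in place of 755 from 4wk to 12wk. With median-of-ratios rescaling the step from P5 to 4wk was -9.04 for Smgc in place of -9.71 and 1.35 for Muc19 in place of 0.68, and 2213 genes were called. With only the samples of both ages, 244 genes were called from 4wk to 12wk. Without replicate 1 of 12wk the Smgc difference from 4wk to 12wk turned from -2.70 to 0.14. Leaving out each library in turn gave, for Smgc, 12.98 to 14.37 from E14.5 to P5, -9.84 to -9.58 from P5 to 4wk and -5.55 to 0.14 from 4wk to 12wk, and for Muc19 5.27 to 6.04, 0.29 to 1.07 and -6.51 to -4.87. The genes called were then 3586 to 3708, 3233 to 3978 and 617 to 1472, the last without replicate 2 of 4wk. The causes were not tested. The mean correlation of deviations was -0.016 for samples of the same replicate number (-0.352 to 0.273) and 0.012 for different numbers. Deviations of 2 samples from their mean mirror each other, so the second value is no separate check. Whether replicate numbers pair the samples was thus not settled. A fit with the replicate number as a block called 3693, 3559 and 741 genes. With 2 libraries at 5 of 6 ages and the lowest depth at 4wk, low genes are least certain there.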

Other observations

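Other genes also differed widely between both 12wk samples. Chia, an acidic chitinase, stood at 668 FPKM in replicate 1 and 6207 in replicate 2, Cst10, a cystatin, at 311 and 2817, Dnase1, a secreted nuclease, at 148 and 1225, and Pigr, the receptor that carries polymeric immunoglobulin into saliva, at 10.8 and 85.2. These genes were named after their values were seen, from the 15 largest differences.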
